A study of Mus with 8 samples.

Results

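The 10 genes described here govern how the liver withholds, carries and stores iron and how plasma clears free hemoglobin and heme: Lcn2, Hamp, Hp, Hpx, Cp, Trf, Tfrc, Slc40a1, Steap4 and Fth1. They were taken by gene symbol from a deposited table of 54532 mouse genes, and all 10 were found and passed the filter on low counts that left 11729 genes to test. RNA came from the livers of mice with colitis caused by dextran sulfate sodium (DSS), which injures the lining of the colon. The labels place 4 libraries in a DSSHA group, given DSS, a high-fat diet and alcohol, and 4 in a DSS group, given DSS without that label for diet or alcohol. All 8 therefore share the DSS treatment, stated as 2.5% and stopped on day 6, and diet and alcohol were given together. The feed of the DSS group, the strain, the age and the sex are not stated in the labels, and no liver without DSS was analysed here. The labels number the libraries 35, 45, 65 and 71 (DSSHA) and 15, 48, 49 and 50 (DSS) without saying whether these are different mice, so the spread behind each p-value may be technical.

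Iron in plasma is carried by transferrin and enters cells through transferrin receptor, and cells hold the surplus in ferritin and release it through ferroportin. Hepcidin, a small peptide hormone made by hepatocytes, binds ferroportin and has it degraded, so it lowers plasma iron; its gene is known to be raised by interleukin-6 through STAT3 and by iron through the BMP and SMAD pathway, and lowered when red cell production is stimulated. During inflammation the liver also secretes haptoglobin, hemopexin, ceruloplasmin and lipocalin 2, which bind hemoglobin, heme, copper and bacterial iron carriers.

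Total counts ran from 12502300 to 16967839 per library, of which nuclear genes held 2722757 to 10947612. Transcripts encoded in mitochondria took 30.2 to 73.0% of counts in DSSHA livers and 55.8 to 79.1% in DSS livers (means of 45.2% ± 19.2 for DSSHA and 65.2% ± 11.4 for DSS, SD over 4 libraries; two-sided exact permutation test, p = 0.143, with 0.0286 as the smallest it can give). Library 35 stood apart, where only 784 genes had 1 to 9 counts. Each of the other 7 libraries had 4319 to 4987 such genes. How the low values of Hamp2, Acvr2a and Steap3 in library 35, given below, relate to this was not tested. The hepatocyte gene Alb, which encodes albumin, had 133825 to 476046 counts in DSSHA livers and 276617 to 678156 in DSS livers, which fits the labelled tissue. The summed level of 8 hepatocyte markers was 22704 to 27431 CPM in DSSHA livers and 40549 to 63710.5 CPM in DSS livers, without overlap, where CPM is the count scaled to a common library size, normalized by the TMM method. In tissue RNA, fewer cells of a type and less RNA per cell cannot be told apart.

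Of the 10 genes, 4 rose in DSSHA livers, namely Lcn2, Steap4, Hp and Hpx, and 6 did not pass the test (edgeR quasi-likelihood F test, Benjamini-Hochberg adjusted p under 0.05 over all tested genes). Over all tested genes 1.26% were called, with 0.588% higher and 0.674% lower. The 10 genes and the pathway lists were chosen with earlier results of these data known. Shares over all genes are given for scale, and a larger share among the chosen genes is no result. None of the 10 fell: of the 3 with a negative value, 0 reached an unadjusted p under 0.05 by edgeR, and DESeq2 and limma-voom called 0 lower (of all genes, 2.26% and 0.639% were called lower by DESeq2 and by limma-voom). By edgeR 7 of the 10 were higher at an unadjusted p under 0.05, as were 5.94% of all tested genes (11.7% in either direction). Limma-voom called the same number, 4, where it called 1.03% of all genes, 0.392% of them higher. The 4 DSSHA libraries lay above all 4 DSS libraries for 6 of the 10 genes, which adds Trf and Fth1, against 4.14% of all tested genes, and 8.77% did not overlap in either direction. The median log2 fold change of the 10 was 0.84, and that of all tested genes was -0.01. With the mitochondrial share in the model 2 of the 10 were called, Lcn2 and Hp, where 0.469% of all genes were. Fits that left out 1 library called 1.36% (without DSS library 15), 0.482% (48), 0.606% (49), 0.629% (50), 2.55% (without DSSHA library 35), 0.694% (45), 1.16% (65) and 1.24% (71) of all genes.

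Together the 10 genes took 7.84 to 10.8% of the nuclear counts in DSSHA livers and 1.88 to 2.33% in DSS livers. Most of this was Hp and Hpx. In DSSHA livers Hp took 3.69 to 6.25% and Hpx 1.73 to 3.31%. In DSS livers Hp took 0.686 to 1.06% and Hpx 0.549 to 0.716%.

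**Figure D1:**
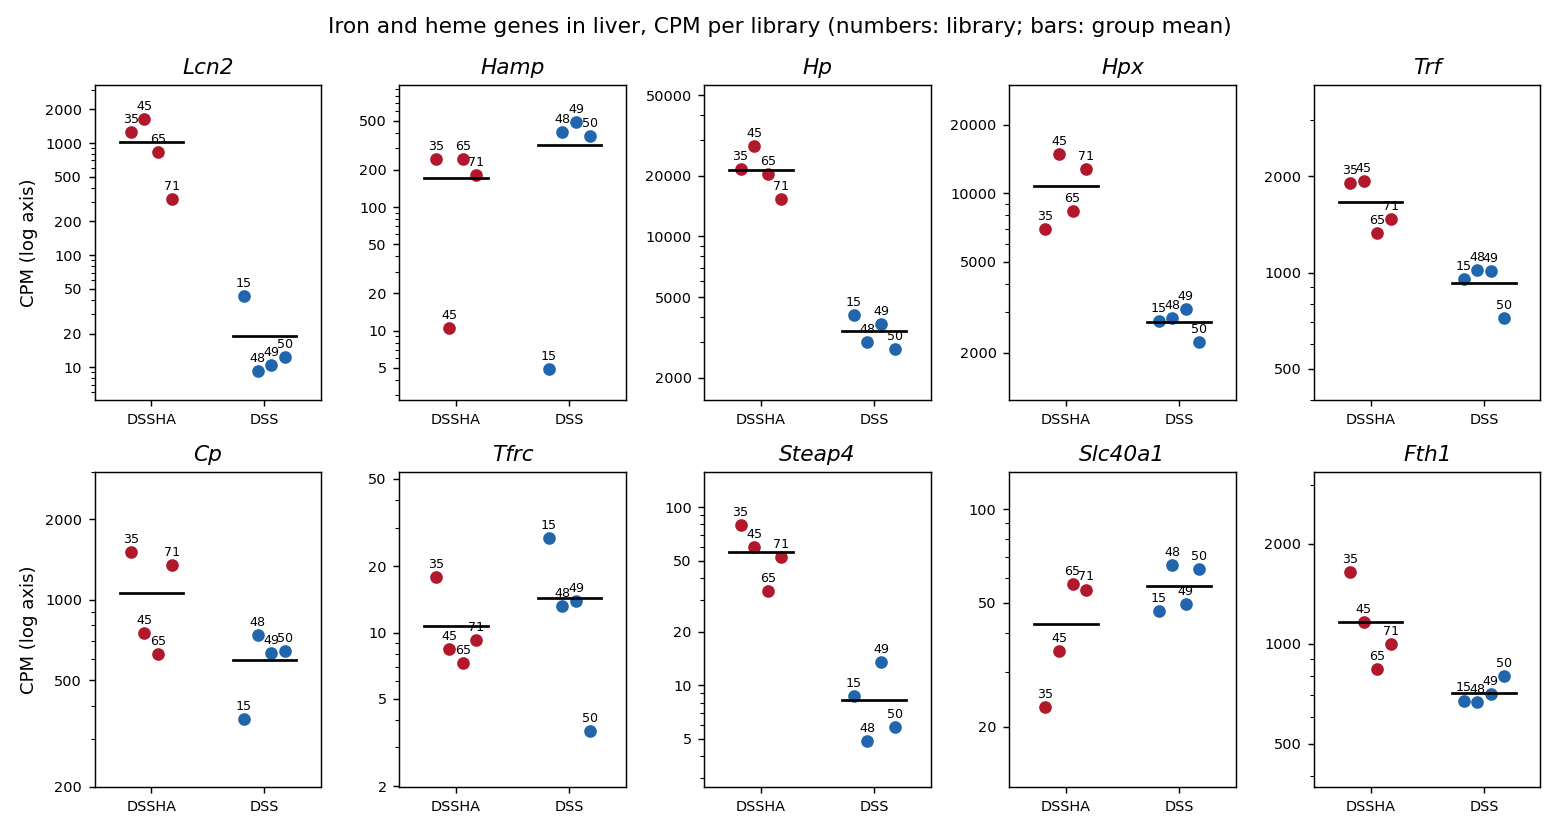
CPM of the 10 genes in each library on log axes whose range differs between panels, DSSHA in red and DSS in blue, with the library number beside each point and a bar at the group mean. Lcn2, Hp, Hpx, Trf, Steap4 and Fth1 do not overlap between the groups, and Hamp is low in DSSHA library 45 (10.5 CPM) and DSS library 15 (4.93 CPM).

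Lcn2 encodes lipocalin 2, a secreted protein that binds the iron carriers bacteria release (siderophores); it lies on chromosome 2 (32384633 to 32388252, GRCm38). It had 1247, 1650.1, 835 and 319 CPM in DSSHA libraries 35, 45, 65 and 71. It had 43.5, 9.19, 10.5 and 12.4 CPM in DSS libraries 15, 48, 49 and 50. Every DSSHA library lay above every DSS library, and DSS library 15 stood above the other DSS livers. The log2 fold change was 5.73 ± 0.69 (SE; edgeR adjusted p = 0.0027), and the call held in all 8 fits that left out 1 library (5.39 to 6.56, highest without DSS library 15).

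Lcn2 is also a neutrophil granule gene, and neutrophil markers were also higher in DSSHA livers. The summed level of 12 neutrophil markers was 36.0 to 82.4 CPM in DSSHA livers and 4.19 to 16.1 CPM in DSS livers. Of the 5 markers tested 4 rose, namely S100a8, S100a9, Retnlg and Prtn3, and Csf3r was not called. Among DSSHA libraries the sum was highest in 65, whereas Lcn2 was highest in 45. Among DSS libraries both were highest in 15. None of the 12 was at 0 in every library. Camp, Ngp and Ltf, genes of neutrophil secondary granules picked after their values were seen, had 0 to 8, 0 to 8 and 0 to 4 counts per library. In CPM, Lcn2 was 20.8, 31.9, 10.1 and 8.88 times the neutrophil sum in DSSHA libraries 35, 45, 65 and 71. In DSS libraries 15, 48, 49 and 50 it was 2.71, 1.56, 2.51 and 1.46 times that sum. CPM is not corrected for length, and Lcn2 (2623 bases) is longer than S100a8 (694) and S100a9 (522), so these ratios overstate Lcn2. Per length, in deposited FPKM (counts per kilobase), S100a9 alone was at 22.6 to 47.7 in DSSHA livers, against 118 to 617 for Lcn2. In DSS livers the ranges overlapped, at 3.16 to 11.0 FPKM for S100a9 and 3.43 to 16.4 FPKM for Lcn2. The part of neutrophils in the Lcn2 result was not tested.

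Among 9217 other genes with a mean of at least 2 CPM, the 5 whose pattern over the 8 libraries was closest to that of Lcn2 were Orm2, Igdcc4, Orm3, Apcs and Idi1. Likeness was the root-mean-square difference between log2 CPM values after each gene's own mean was taken off, and it ran from 0.75 (Orm2) to 1.18 (Idi1), where Lcn2 itself varied with an SD of 3.04. Orm2 and Orm3 encode orosomucoids and Apcs serum amyloid P component, all plasma proteins of the acute phase. Orm2 had 482, 595, 317 and 528 CPM in DSSHA libraries 35, 45, 65 and 71, and 13.5, 7.43, 5.15 and 8.04 CPM in DSS libraries 15, 48, 49 and 50. A gap between the groups comes with the choice of genes close to Lcn2 and is no result. Within DSSHA livers the highest and lowest Orm2 values were less far apart than those of Lcn2.

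Hamp, the hepcidin gene (chromosome 7, 30942368 to 30944032), did not follow Lcn2. It had 246, 10.5, 245 and 182 CPM in DSSHA libraries 35, 45, 65 and 71. It had 4.93, 404, 488 and 376 CPM in DSS libraries 15, 48, 49 and 50. One library of each group was thus far below the rest, and the groups overlapped. The means were 171 ± 111 CPM in DSSHA livers and 318 ± 214 CPM in DSS livers (SD, n = 4 each). The difference was -0.90 ± 1.01 on the log2 scale (SE; edgeR adjusted p = 0.810). Leaving out 1 library gave values from -1.31 (without DSS library 15) to -0.51 (without DSSHA library 45), none of them past the threshold.

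The spread of Hamp within a group was wide. Its highest library was 23.5 times its lowest in DSSHA livers and 99.0 times in DSS livers. The SD of log2 CPM was 2.21 in DSSHA livers and 3.19 in DSS livers, where the median tested gene had 0.56 and 0.37. Only 3 of the 11729 tested genes had a larger SD than Hamp among the DSS libraries. The gene nearest to Hamp in pattern, Prex2, lay at a root-mean-square difference of 1.62, against an SD of 2.39 for Hamp itself, so no gene among the 9217 compared traced it closely.

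Hamp2, a close paralog of Hamp with 17686 bases between them, was too low to test over all 8 libraries. It had 0, 3, 0 and 7 counts in DSSHA libraries 35, 45, 65 and 71, and 0, 33, 55 and 21 counts in DSS libraries 15, 48, 49 and 50. DSS library 15 was at 0 for Hamp2 and lowest for Hamp, whereas DSSHA libraries 35 and 65 were at 0 for Hamp2 with Hamp near 245 CPM. Hamp2 passed the filter in 5 of the fits that left out 1 library and was called in 1 of them, without DSS library 15, where it had 0 counts (-5.01 on the log2 scale, edgeR adjusted p = 0.044). In the other 4 it was not called, with edgeR adjusted p up to 0.341. The labels do not say how reads shared by the copies were counted.

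The 2 libraries low in Hamp were those highest in Lcn2 within their own group. DSS library 15 also had the highest DSS level of Socs3, which STAT3 induces and which damps its signal, at 9.23 CPM, against 1.64 to 2.38 CPM in the other 3 DSS libraries. Stat3 itself was at 59.5 CPM there, against 24.7 to 29.96 CPM in the other 3. The summed level of 10 erythroid genes was 2248 CPM in DSS library 15, against 175 to 277 CPM in the other DSS libraries, and 400 to 808 CPM in DSSHA livers. DSSHA library 45, also low in Hamp, was at 512 CPM for that sum, inside the range of its group. The alpha-globin gene Hba-a1 had 19755 counts in DSS library 15 and 1082 to 1427 counts in the other DSS libraries; Rhag, a red cell membrane gene, was at 0 in all 8. The part of these genes in the level of Hamp was not tested.

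**Figure D2:**
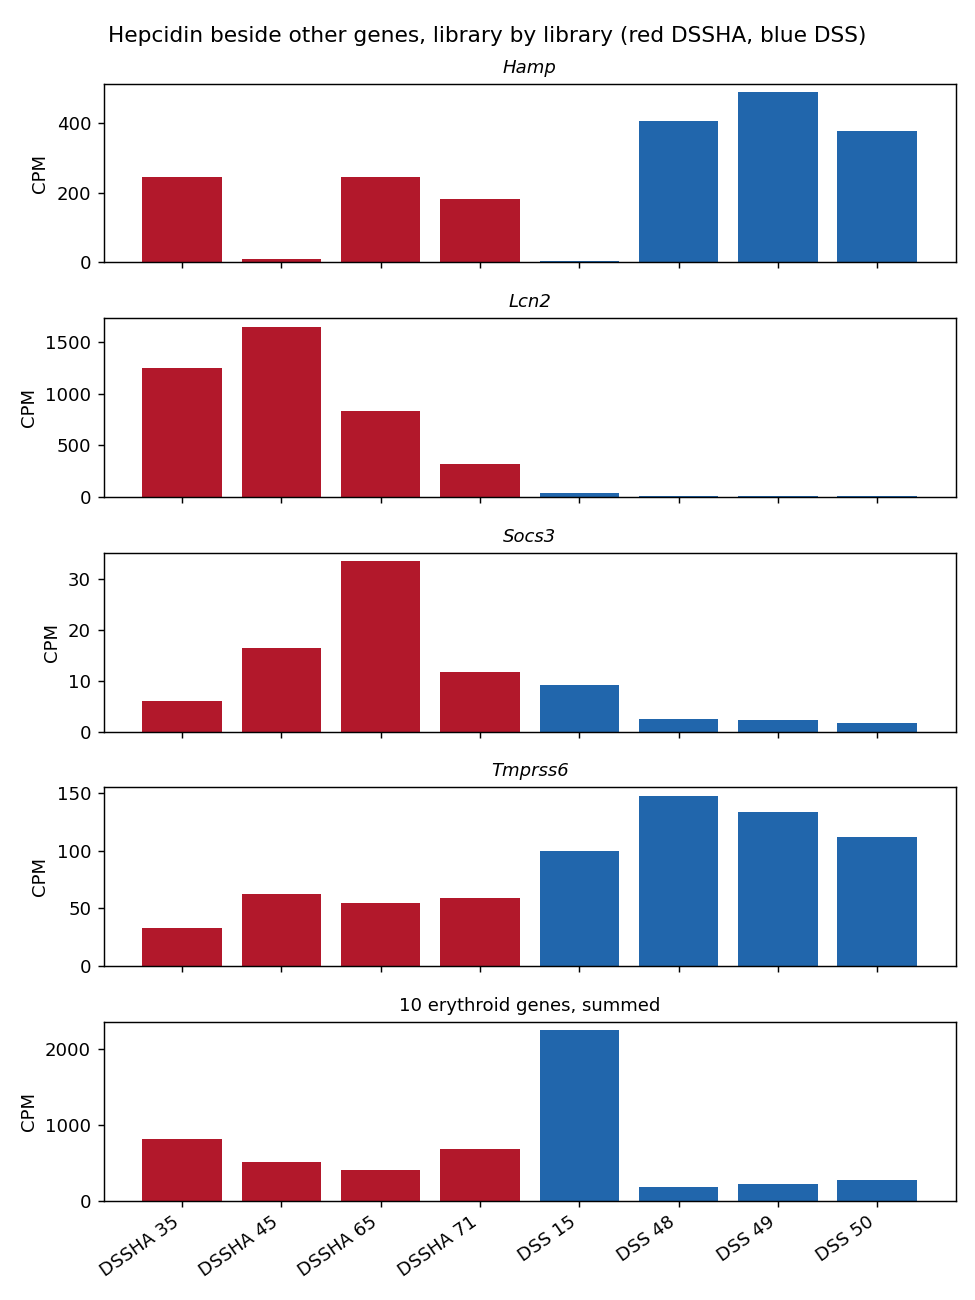
CPM of Hamp, Lcn2, Socs3 and Tmprss6 and the summed CPM of 10 erythroid genes in each library, on linear axes from 0, with DSSHA libraries in red and DSS libraries in blue. Hamp is near the bottom of its axis in DSSHA 45 (10.5 CPM) and DSS 15 (4.93 CPM), and the erythroid sum is highest in DSS 15 (2248 CPM).

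Of 21 tested genes that control hepcidin through bone morphogenetic proteins, SMAD proteins and HFE, of 23 listed, 2 fell in DSSHA livers and none rose (9.52% called, against 1.26% of all tested genes; none of the genes with positive values reached an unadjusted p under 0.05). The list's median log2 fold change was -0.24. Tmprss6 encodes matriptase-2, a liver protease that cleaves hemojuvelin and so holds hepcidin down. It had 33.0, 62.5, 54.3 and 59.0 CPM in DSSHA libraries 35, 45, 65 and 71, and 99.9, 147, 133 and 111 CPM in DSS libraries 15, 48, 49 and 50, so the groups did not overlap. Its log2 fold change was -1.24 ± 0.25 (SE; edgeR adjusted p = 0.033). Smad9 encodes SMAD8, one of the SMAD proteins that BMP receptors activate. It had 3.30, 0.864, 1.88 and 1.51 CPM in DSSHA libraries 35, 45, 65 and 71, and 6.24, 8.98, 6.83 and 10.6 CPM in DSS libraries 15, 48, 49 and 50. Again every DSSHA library lay below every DSS library (log2 fold change -2.11 ± 0.42, edgeR adjusted p = 0.033).

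Both calls were narrow. Each was lost without any 1 of DSS libraries 48, 49 and 50 or DSSHA libraries 45, 65 and 71, with edgeR adjusted p up to 0.161 for Tmprss6 and 0.130 for Smad9, and held without DSS library 15 or DSSHA library 35. Over the 8 fits the log2 fold change ran from -1.34 to -1.07 for Tmprss6 and from -2.56 to -1.86 for Smad9. Both were also lost once the mitochondrial share was in the model (0.158 for Tmprss6 and 0.250 for Smad9). Bmp2, a ligand made by sinusoidal endothelial cells that drives hepcidin, averaged 2.42 ± 0.346 CPM in DSSHA livers and 5.82 ± 1.85 CPM in DSS livers (SD, n = 4 each), without passing (log2 fold change -1.26 ± 0.33, edgeR adjusted p = 0.116). The summed level of 8 sinusoidal endothelial markers ran from 87.0 to 193 CPM in DSSHA livers and from 124 to 223 CPM in DSS livers; none of the 8 was called. Acvr2a, a type II receptor for activins and BMPs, was at 0 in DSSHA library 35 and at 1.33 to 1.85 CPM in DSSHA libraries 45, 65 and 71. In DSS livers it was at 3.43 to 4.63 CPM (-1.69 ± 0.78 on the log2 scale, edgeR adjusted p = 0.437).

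On the interleukin-6 side, none of 14 tested genes, of 15 listed, was called by edgeR or limma-voom, while 4 reached an unadjusted p under 0.05 (11.7% of all tested genes did) and DESeq2 called 3 (4.14% of all genes). The list's median log2 fold change was 0.26. Il1r1, the interleukin-1 receptor, averaged 31.5 ± 21.8 CPM in DSSHA livers and 9.33 ± 2.49 CPM in DSS livers (SD, n = 4 each; log2 fold change 1.76 ± 0.44, edgeR adjusted p = 0.091). Il1r1 passed without DSSHA library 71 (2.02, edgeR adjusted p = 0.037) and with the mitochondrial share in the model (2.36, 0.015). Osmr, the oncostatin M receptor, stood at 1.22 ± 0.34 on the log2 scale (edgeR adjusted p = 0.136). Socs3 stood at 2.07 ± 0.62 (0.166), and Stat3 at 0.82 ± 0.30 (0.277). Both passed when DSS library 15 was left out, Socs3 at 2.98 (edgeR adjusted p = 0.037) and Stat3 at 1.18 (0.046). Il6, too low to test, had 2 counts in DSSHA library 65 and 0 in the other 7 libraries.

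Hp and Hpx, which clear hemoglobin and heme, were the most abundant of the 10. Hp encodes haptoglobin, which binds free hemoglobin (chromosome 8, 109575128 to 109579172). It had 21682, 28156, 20273 and 15299 CPM in DSSHA libraries 35, 45, 65 and 71. It had 4078, 3011, 3689 and 2782 CPM in DSS libraries 15, 48, 49 and 50. The lowest DSSHA library was more than 3 times the highest DSS library, and the log2 fold change was 2.66 ± 0.31 (SE; edgeR adjusted p = 0.0026). The call held in all 8 fits without 1 library (2.49 to 2.78). Hp alone took 3.69 to 6.25% of nuclear counts in DSSHA livers and 0.686 to 1.06% in DSS livers. Per length, the ratio of Hp to Alb was 1.35 to 2.10 in DSSHA livers and 0.0923 to 0.197 in DSS livers, so Hp stood above albumin in each DSSHA library. Alb itself was lower there, at 14781 to 23397 CPM, than in DSS livers, at 30192.5 to 50256.5 CPM. It was not called (log2 fold change -1.20 ± 0.31, edgeR adjusted p = 0.115), but its level is part of the gap in this ratio.

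Hpx encodes hemopexin, which binds free heme and carries it to hepatocytes (chromosome 7, 105591613 to 105600137). It had 6996, 14927, 8331 and 12788 CPM in DSSHA libraries 35, 45, 65 and 71, and 2757, 2847, 3111 and 2228 CPM in DSS libraries 15, 48, 49 and 50. The groups did not overlap, and the log2 fold change was 1.98 ± 0.32 (SE; edgeR adjusted p = 0.011). The call was lost without DSS library 48 (edgeR adjusted p = 0.070), 49 (0.054) or 50 (0.067), and also once the mitochondrial share was in the model (log2 fold change 1.67, adjusted p = 0.052). The fold change without those libraries stayed between 1.88 and 2.04.

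Of 16 tested genes of heme breakdown, transport and scavenging, of 18 listed, edgeR and limma-voom called 0, while 8 reached an unadjusted p under 0.05 (11.7% of all tested genes did) and DESeq2 called 1, Lrp1 (4.14% of all genes). The list median was 0.37 on the log2 scale. Lrp1 encodes a large endocytic receptor that takes up hemopexin loaded with heme. It had 62.7, 153, 164 and 158 CPM in DSSHA libraries 35, 45, 65 and 71, and 211, 345, 466 and 464 CPM in DSS libraries 15, 48, 49 and 50. The groups did not overlap (-1.47 ± 0.35 on the log2 scale, edgeR adjusted p = 0.081), and Lrp1 passed without DSSHA library 35 (-1.23, edgeR adjusted p = 0.029) and without DSS library 15 (-1.66, 0.046). Blvra, a biliverdin reductase, stood at 0.88 ± 0.27 (0.179), Bach1, a heme-sensing repressor, at 0.84 ± 0.30 (0.258), and Pgrmc1, a heme-binding membrane protein, at -0.72 ± 0.26 (0.280).

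Heme synthesis genes were not called either: 0 of 14 tested, of 15 listed, by edgeR and limma-voom, with 3 at an unadjusted p under 0.05 (11.7% of all tested genes) and 1 called by DESeq2, Alas1 (4.14% of all genes). The list median was 0.25 on the log2 scale. Alas1 encodes the rate-limiting enzyme of heme synthesis in liver. It had 211, 96.4, 71.2 and 61.9 CPM in DSSHA libraries 35, 45, 65 and 71, and 501, 305, 237 and 254 CPM in DSS libraries 15, 48, 49 and 50. The groups did not overlap, and the log2 fold change was -1.56 ± 0.41 (edgeR adjusted p = 0.110). It passed without DSSHA library 35, at -2.08 (edgeR adjusted p = 0.0013). Abcb10, a mitochondrial transporter, stood at -0.97 ± 0.44 (0.421), and the pathway enzyme Uros at 0.77 ± 0.34 (0.419).

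Trf encodes transferrin, the plasma iron carrier (chromosome 9, 103204001 to 103230444). It had 1912, 1932, 1329 and 1469.7 CPM in DSSHA libraries 35, 45, 65 and 71, and 956, 1019, 1009 and 719 CPM in DSS libraries 15, 48, 49 and 50. The groups did not overlap, yet the gene did not pass by edgeR (log2 fold change 0.84 ± 0.24, adjusted p = 0.145). DESeq2 called it (log2 fold change 0.84, adjusted p = 0.0041), as did the authors' deposited table (log2 fold change 0.84, adjusted p = 0.019). DESeq2 and the authors' deposited table each called 5 of the 10 genes, the 4 above and Trf, where DESeq2 called 4.14% of all genes (1.88% higher) and the adjusted p of the authors' deposited table called 2.08%. Per length, the ratio of Trf to Alb was 0.0577 to 0.0696 in DSSHA livers and 0.0123 to 0.0223 in DSS livers. The lower Alb level in DSSHA livers is part of that gap, so the ratio overstates the difference in Trf.

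Cp encodes ceruloplasmin, the copper-carrying oxidase of plasma that readies iron for transferrin (chromosome 3, 19957054 to 20009145). It had 1503, 750.4, 627 and 1341 CPM in DSSHA libraries 35, 45, 65 and 71, and 359, 735, 634 and 644 CPM in DSS libraries 15, 48, 49 and 50. DSSHA library 65 lay below DSS libraries 48, 49 and 50, so the groups overlapped (log2 fold change 0.83 ± 0.34, edgeR adjusted p = 0.345). Cp overlaps Hps3 on the opposite strand, and the labels do not give the strand setting of the counting; Hps3 had at most 66 counts in a library.

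Tfrc encodes transferrin receptor 1, which takes up iron-loaded transferrin (chromosome 16, 32608920 to 32632794). It had 17.97, 8.40, 7.29 and 9.29 CPM in DSSHA libraries 35, 45, 65 and 71, and 26.9, 13.2, 13.9 and 3.58 CPM in DSS libraries 15, 48, 49 and 50. DSS library 15, which was low in Hamp, was the highest of the 8, and DSS library 50 the lowest. The log2 fold change was -0.43 ± 0.49 (edgeR adjusted p = 0.809), and without DSS library 15 it was 0.06.

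Steap4 encodes a membrane reductase that turns ferric into ferrous iron for uptake and responds to inflammatory signals (chromosome 5, 7960457 to 7982213). It had 79.1, 60.0, 33.7 and 52.3 CPM in DSSHA libraries 35, 45, 65 and 71. It had 8.73, 4.84, 13.5 and 5.81 CPM in DSS libraries 15, 48, 49 and 50. The groups did not overlap (log2 fold change 2.78 ± 0.37, SE; edgeR adjusted p = 0.0044), and the call held in all 8 fits without 1 library (2.57 to 3.10). It was lost once the mitochondrial share was in the model (2.49, edgeR adjusted p = 0.052).

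Slc40a1 encodes ferroportin, the iron exporter that hepcidin degrades (chromosome 1, 45908068 to 45926523). It had 23.1, 35.1, 57.5 and 55.2 CPM in DSSHA libraries 35, 45, 65 and 71, and 47.1, 65.9, 49.5 and 64.2 CPM in DSS libraries 15, 48, 49 and 50. DSSHA libraries 35 and 45 lay below all DSS libraries and the other two within their range (log2 fold change -0.41 ± 0.29, edgeR adjusted p = 0.672). Ferroportin is abundant in Kupffer cells, the resident macrophages of liver, and the summed level of 10 Kupffer markers was 348 to 678 CPM in DSSHA livers and 219 to 346 CPM in DSS livers, with 1 of the 10, Marco, called higher. Without Marco, a sum taken after the values were seen, the other 9 overlapped, at 251 to 565 CPM in DSSHA livers and 211 to 337 CPM in DSS livers.

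Fth1 encodes the heavy chain of ferritin, the iron storage shell (chromosome 19, 9982703 to 9985092). It had 1650.2, 1159.8, 839 and 998 CPM in DSSHA libraries 35, 45, 65 and 71, and 674, 667, 704 and 802 CPM in DSS libraries 15, 48, 49 and 50. The groups lay apart by a small margin, between 839 and 802 CPM, and the gene did not pass (log2 fold change 0.71 ± 0.25, edgeR adjusted p = 0.267). Ftl1, the ferritin light chain, stood at 0.43 ± 0.29 (edgeR adjusted p = 0.645).

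**Figure D3:**
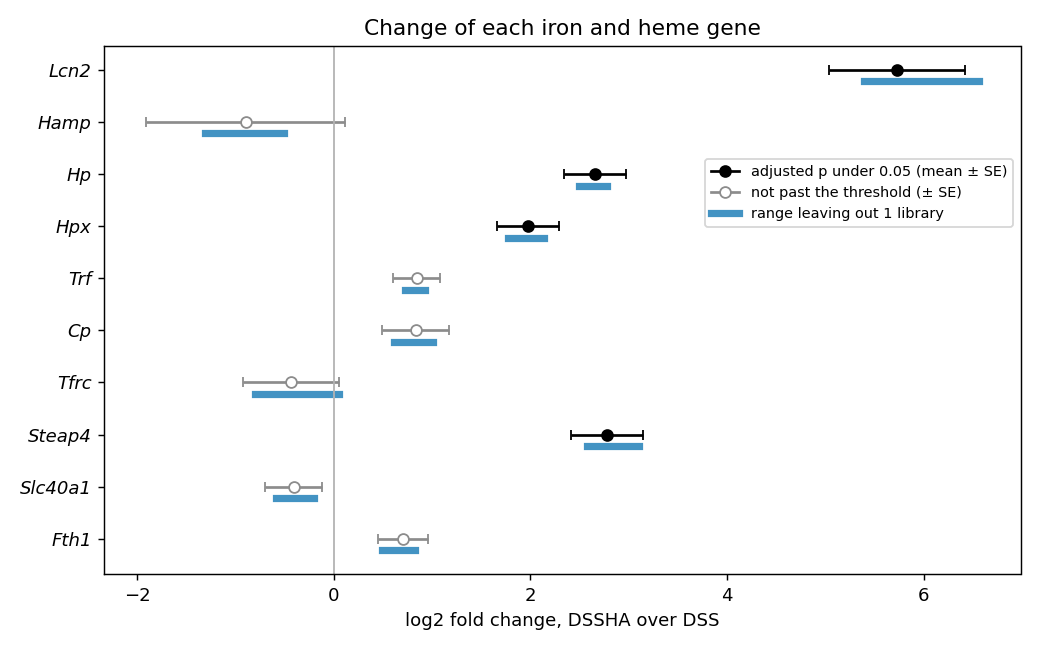
Log2 fold change of DSSHA over DSS for each of the 10 genes with its SE (n = 4 each), filled where the adjusted p was under 0.05, and a blue bar for the range over the 8 fits that left out 1 library. Lcn2 (5.73), Steap4 (2.78), Hp (2.66) and Hpx (1.98) are filled, and the bar of Tfrc crosses 0.

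In the wider list of cellular iron uptake, storage and export, edgeR, DESeq2 and limma-voom called 0 of 17 tested genes, of 22 listed, with 4 at an unadjusted p under 0.05, against 11.7% of all tested genes (median log2 fold change -0.01). Fbxl5, an iron sensor that marks iron regulatory protein 2 for degradation, averaged 15.4 ± 3.97 CPM in DSSHA livers and 9.09 ± 1.81 CPM in DSS livers (SD, n = 4 each; log2 fold change 0.76 ± 0.26, edgeR adjusted p = 0.230). Slc39a14, a transporter of iron not bound to transferrin, stood at 0.66 ± 0.24 (0.275). Scara5, a ferritin receptor, stood at 1.71 ± 0.63 (0.286) and passed without DSSHA library 35 (2.04, edgeR adjusted p = 0.027). Steap3, a ferrireductase of endosomes, had 0.280, 3.17, 3.31 and 2.70 CPM in DSSHA libraries 35, 45, 65 and 71, and 4.19 to 7.75 CPM in DSS livers (-1.40 ± 0.57, 0.345).

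Over all 6 pathway lists, 2 of 84 tested genes were called, or 2.38%, against 1.26% of all tested genes. Of 8 genes listed for siderophore binding and as partners of Lcn2, 6 were too low to test. Those 6 included Slc22a17, described as an Lcn2 receptor, with 0 to 18 counts per library, and Mmp9, a protease that binds Lcn2, with 0 to 36 counts. The 2 tested, Lyz2 (lysozyme, 0.89 ± 0.39 on the log2 scale, edgeR adjusted p = 0.401) and Bdh2 (an enzyme linked to a mammalian siderophore, -1.07 ± 0.57, 0.519), were not called by edgeR, DESeq2 or limma-voom; 1 of them, Lyz2, reached an unadjusted p under 0.05.

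**Figure D4:**
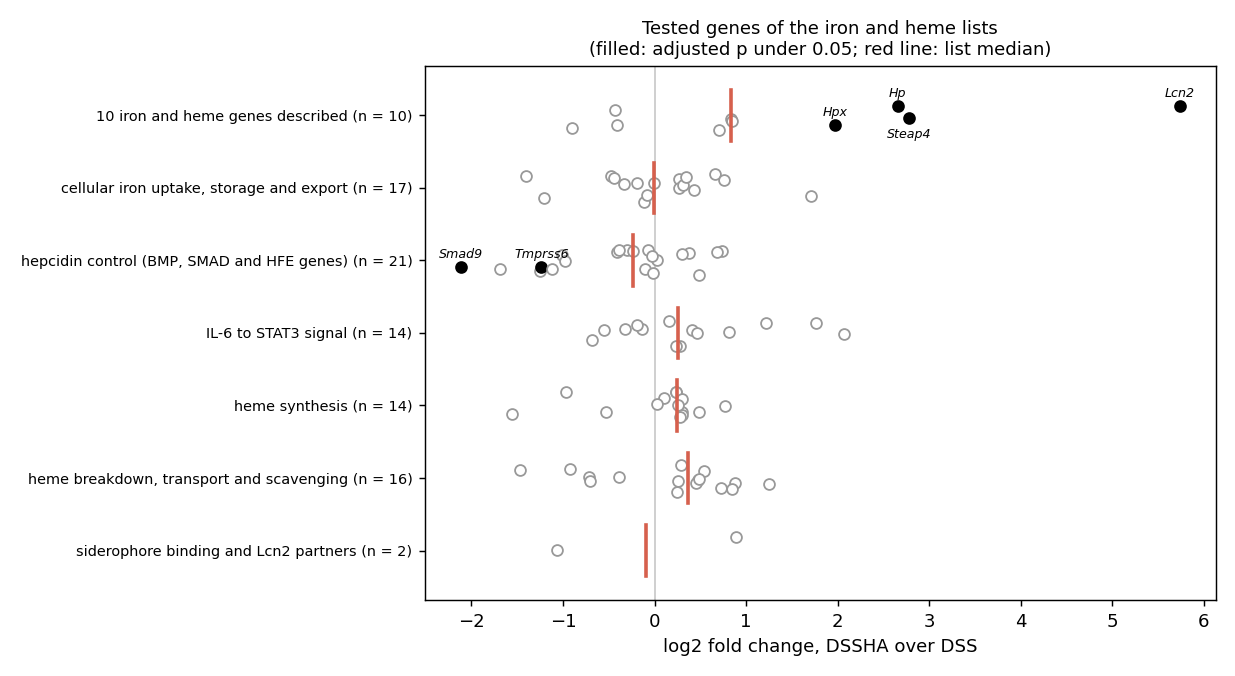
Log2 fold change of DSSHA over DSS for each tested gene of the 10 described and of the 6 pathway lists, filled where the adjusted p was under 0.05, with the list median as a red line; vertical scatter within a row has no meaning. Outside the 10 genes described, Smad9 (-2.11) and Tmprss6 (-1.24) are filled.

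The deposited FPKM values, counts per kilobase with 1 scaling factor per library, which is not the plain total count, allow levels to be set side by side. In DSSHA livers the order by median FPKM was Hp (12817), Hpx (6905), Fth1 (1217), Hamp (507), Trf (495), Lcn2 (389), Cp (107), Steap4 (17.4), Slc40a1 (4.89) and Tfrc (1.40). The ranges over 4 libraries of these neighbours overlapped for Hp and Hpx, for Hamp and Trf, for Trf and Lcn2, for Lcn2 and Cp and for Slc40a1 and Tfrc. Such ranges do not pair 2 genes within a library, so an overlap does not show that a pair was alike. Hp was 1.12 to 2.89 times Hpx in DSSHA livers, above it in each library, and 0.987 to 1.38 times Hpx in DSS livers. In DSS livers the order was Hp (2040.4), Hpx (1842), Hamp (928), Fth1 (783), Trf (291), Cp (64.99), Slc40a1 (6.14), Lcn2 (4.25), Steap4 (2.26) and Tfrc (2.14). There the overlapping neighbours were Hp and Hpx, Hamp and Fth1, Slc40a1 and Lcn2, Lcn2 and Steap4, and Steap4 and Tfrc. Lcn2 thus had the sixth place in DSSHA livers and the eighth in DSS livers. Within DSSHA livers, Lcn2 ran from 118 to 617 FPKM, overlapping transferrin at 397 to 570.3 FPKM. Within DSS livers, Lcn2 ran from 3.43 to 16.4 FPKM and transferrin from 209.8 to 301 FPKM.

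**Figure D5:**
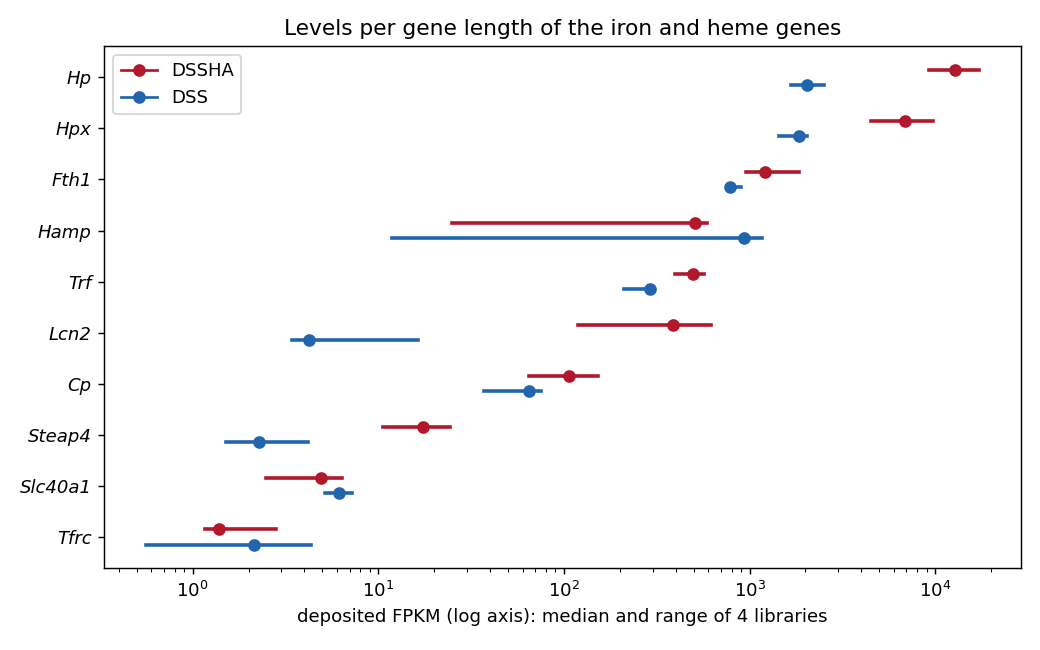
Deposited FPKM of the 10 genes on a log axis, with the median as a point and the range of 4 libraries as a line, DSSHA in red above DSS in blue, ordered by the DSSHA median. The Lcn2 lines (118 to 617 FPKM in DSSHA, 3.43 to 16.4 FPKM in DSS) lie far apart, and the Hamp lines overlap over most of their length.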

How the data were processed

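Liver RNA was extracted and made into mRNA libraries, per the labels' protocols. The authors deposited raw counts per gene and library; GRCm38 and mm10 are the builds named by the submitters' processing notes, and no aligner, counter or strand setting is stated in the labels. Within each library the deposited FPKM is proportional to the deposited count over gene length. The deposited log2 fold changes and p-values are the authors' own; the group means in the authors' table, treated as a score, were not used.

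Counts were filtered (filterByExpr), TMM-normalized and compared by the robust quasi-likelihood F test of edgeR 4.0.16 in R 4.3.3; the SE is the log2 fold change over the square root of F. CPM uses TMM sizes, and log2 CPM adds a prior count of 2. Alternatives were RLE and upper-quartile scaling, DESeq2 1.42.0, limma-voom and limma on log2(FPKM + 1) (limma 3.58.1), other filters, a non-robust fit, mitochondrial genes left out or as a covariate, and leaving out each library. On simulated data (DSSHA over DSS, 11431 genes), the test recovered 12.5% of 64 genes changed 2-fold, 74.2% of 66 changed 4-fold and 89.1% of 64 changed 8-fold, with 9 false calls among 123.

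The genes and lists were chosen with earlier results of these data known. Named are the 10 genes, up to 4 per pathway list with the smallest p, their paralogs Hamp2 and Ftl1, and the 5 nearest patterns to Lcn2 and Hamp, except 1 gene that is not reported here; Hba-a1, Il6, Slc22a17, Mmp9 and granule genes were added after their values were seen. Depths cover counting error only.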

Additional observations from a re-analysis of the deposited data

Results flagged for a closer look

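In groups of 4 libraries, Dixon's 95% criterion was tried on the CPM of the 10 genes and the 22 pathway genes named by rule, and it marked 5 of 64 groups; chance marks about 1 in 20. In DSS library 15, Lcn2 was at 43.5 CPM (9.19 to 12.4 CPM in the other 3 DSS libraries), Socs3 at 9.23 CPM (1.64 to 2.38) and Stat3 at 59.5 CPM (24.7 to 29.96). In DSSHA library 35, Fbxl5 was at 21.3 CPM (12.5 to 14.0 in the other 3 DSSHA libraries) and Lrp1 at 62.7 CPM (153 to 164).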

How the results depend on the processing

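No paired analysis was possible because no library number occurs in both groups. The count of all genes called, 148, was 484 with DESeq2, 249 without a filter on low counts and 55 with the mitochondrial share as a covariate. Leaving out 1 library gave 58 to 308, and the count moved by over 1.5 times without DSS 48, 49 or 50 or DSSHA 35 or 45. The 4 calls among the 10 genes became 2 with the mitochondrial covariate (Lcn2 and Hp), 5 with DESeq2 and 3 or 4 without 1 library. The 2 pathway genes called became 8 with DESeq2, 5 without a filter and 1 with the covariate; leaving out 1 library gave 0 to 6. Fits with 0 had 14 to 28 of these genes at an unadjusted p under 0.05 by edgeR. Tfrc changed sign without DSS 15 (lowest -0.80, highest 0.056 over the 8 fits). The cause was not tested. The order of levels was the same with TMM-scaled counts per kilobase. Both measures are proportional to count over gene length within a library, so the order could hardly differ. In the simulated data most changes of 2-fold were missed.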

Other observations

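Ratios per length of related genes varied between libraries and were not tested. Fth1 over Ftl1 was 2.09, 2.81, 2.54 and 1.56 in DSSHA libraries 35, 45, 65 and 71, and 1.53, 1.76, 1.57 and 2.32 in DSS libraries 15, 48, 49 and 50. Hp over Hpx was 2.89, 1.76, 2.27 and 1.12 in those DSSHA libraries, and 1.38, 0.987, 1.11 and 1.17 in those DSS libraries. Lcn2 over Hp was 0.0128 to 0.0359 in DSSHA livers and 0.00175 to 0.00653 in DSS livers, whereas Steap4 over Hp overlapped, at 0.000846 to 0.00186 in DSSHA livers and 0.000818 to 0.00187 in DSS livers.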
